A study of Mus musculus with 6 samples.

Results

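Transcripts of 10 genes of T cell costimulation and agonist selection (Cd28, Icos, Ctla4, Pdcd1, Ikzf2, Foxp3, Il2ra, Tnfrsf4, Tnfrsf9 and Tnfrsf18) were examined in CD4+CD8+ double-positive thymocytes with and without KANSL1, a scaffold subunit of the NSL histone acetyltransferase complex. The genes were taken by symbol from the deposited count table, which lists 29626 genes, and all 10 were found. The KANSL1-deficient group was 3 Kansl1fl/fl mice that also carried CD4-Cre, a Cre transgene driven by Cd4 regulatory sequence, which is active from about the double-positive stage on. The control group was 3 Kansl1fl/fl littermates without Cre, which the labels also call WT. All mice were 8 weeks old, both groups carried the floxed allele, the cells were sorted from the thymus by flow cytometry, and nothing was added to them in culture. Because Cre was present in the KANSL1-deficient mice alone, an effect of Cre and one of Kansl1 loss cannot be told apart.

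A T cell receptor signal is interpreted together with a second signal. CD28 supplies the activating one when it binds CD80 or CD86, ICOS is its inducible relative with a ligand of its own, and CTLA-4 competes for the CD28 ligands and restrains the response, as PD-1 does through other ligands. In the thymus, cells whose receptor binds self peptide strongly either die or are diverted to specialised fates. These fates include regulatory T cells, and the process is called agonist selection. Such cells are known to induce PD-1 and Helios (encoded by Ikzf2) at an early step and the IL-2 receptor alpha chain, the TNF receptor family members GITR, OX40 and 4-1BB, and FOXP3 at a later one.

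The libraries held 19361968 to 22459830 counts, and levels are given as CPM, the count scaled to a common library size with TMM factors, which correct for differences in RNA composition. Kansl1 itself was read at 146, 168 and 188 CPM in KANSL1-deficient replicates 1 to 3, against 214, 189 and 230 CPM in control replicates 1 to 3, and the difference did not pass the threshold of 0.05 (log2 fold change -0.33 ± 0.14, SE; adjusted p = 0.171 by the edgeR quasi-likelihood test). Every KANSL1-deficient library was below every control library. The floxed exons are not named in the labels, so a count over the whole gene checks them only in part. Markers of double-positive cells summed to 15595 to 17288 CPM in the KANSL1-deficient libraries, against 13119 to 13653 CPM in the control libraries. Markers of regulatory T cells other than the genes studied here summed to 57.9 to 68.8 CPM, against 44.8 to 72.3 CPM in control libraries. The 5 tested ones had a median log2 fold change of 0.08. Nrp1 made up most of this sum, at 55.5 ± 4.13 and 49.7 ± 13 CPM in KANSL1-deficient and control cells (SD). Gpr83 had 162 counts in KANSL1-deficient and 28 in control libraries, with a log2 fold change of 2.55 ± 1.18 (SE) and an adjusted p of 0.224 by edgeR. Capg, Ikzf4 and Itgb8 went the other way, at 193, 77 and 3 counts, against 337, 107 and 12 in control libraries. Izumo1r had 60 and 63. Of B cell markers, Ighm was higher and Cd79a was read 35 times in KANSL1-deficient and 37 times in control libraries; of gamma-delta T and NK cell markers, Gzma was higher. Markers of CD4 single-positive cells summed to 406 to 571 CPM, against 244 to 297 CPM in control libraries, and 1 of 4 tested ones was higher. In this list Klf2 and Ccr7 had log2 fold changes of 0.67 ± 0.36 and 0.51 ± 0.22 (SE) that did not pass, Cd40lg had 20 counts in all KANSL1-deficient libraries together and 0 in the control libraries, and Zbtb7b had 1 and 0. Markers of CD8 single-positive cells summed to 2408 to 2984 CPM, against 2442 to 2638 CPM in control libraries, nearly all of it from Cd8b1, and the 4 tested ones had a median of -1.48 on the log2 scale. Of these, Runx3 (-0.69 ± 0.19), Itgae (-2.27 ± 0.75) and Cst7 (-2.54 ± 0.82) had all KANSL1-deficient libraries below the controls, with adjusted p of 0.0522, 0.0900 and 0.0821 (edgeR). The part of these cells in the values that follow was not tested. In sorted cells measured in bulk, fewer cells that express a gene and less of its RNA per cell cannot be told apart.

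On a scale that corrects for transcript length (the deposited FPKM), Cd28 was the most abundant of the 10 genes in both groups, at 71.1 ± 1.94 FPKM in KANSL1-deficient cells and 59.4 ± 6.74 FPKM in control cells (SD, n = 3 each). Ctla4 came next, at 28.3 ± 7.15 and 20.9 ± 3.14 FPKM in KANSL1-deficient and control cells. In the KANSL1-deficient cells Ikzf2 (16.5 ± 0.438 FPKM) and Icos (15.1 ± 1.45) followed with ranges that overlapped, and both lay above Tnfrsf18 (8.41 ± 0.347). In the control cells the ranges of Ikzf2 (11 ± 1.42), Tnfrsf18 (10.4 ± 1.25) and Icos (8.99 ± 1.29) overlapped from each to the next. Pdcd1 and Il2ra stood lower, at 3.77 ± 1.34 and 2.97 ± 0.461 FPKM in KANSL1-deficient cells, and in control cells at 1.46 ± 0.947 and 2.35 ± 0.822 FPKM, with overlapping ranges in each group. Tnfrsf4, Tnfrsf9 and Foxp3 reached at most 1.7, 0.494 and 0.0199 FPKM in any library.

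Of the 10 genes, 9 passed the filter on low counts and Foxp3 did not. Ikzf2 and Icos were higher in the KANSL1-deficient cells, by 1.66-fold and 1.86-fold, and 0 were lower. Over all 15353 tested genes, 3.85% were called higher, 2.91% lower and 6.76% in either direction. Cd28, Ctla4 and Pdcd1 had positive log2 fold changes that missed the threshold with edgeR and passed with DESeq2, which called 5 of the 10 genes higher, against 7.56% of all genes it tested. The corresponding values for limma-voom were 3 genes and 4.65%. Tnfrsf9 and Foxp3 had no adjusted p from DESeq2, so neither could be called by it. The 10 genes were chosen with earlier results of these data known. The TNF receptor family genes had log2 fold changes between -0.41 and -0.16 with adjusted p from 0.744 to 0.917 (edgeR). The median log2 fold change of the 9 tested genes was 0.49, against -0.02 over all tested genes, and 6 of the 9 values were above 0, against 48.2% of all. In 4 of the 9 the groups were fully apart, each time with the KANSL1-deficient libraries higher, which was so for 14.6% of genes at large (28.5% in either direction).

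**Figure D1:**
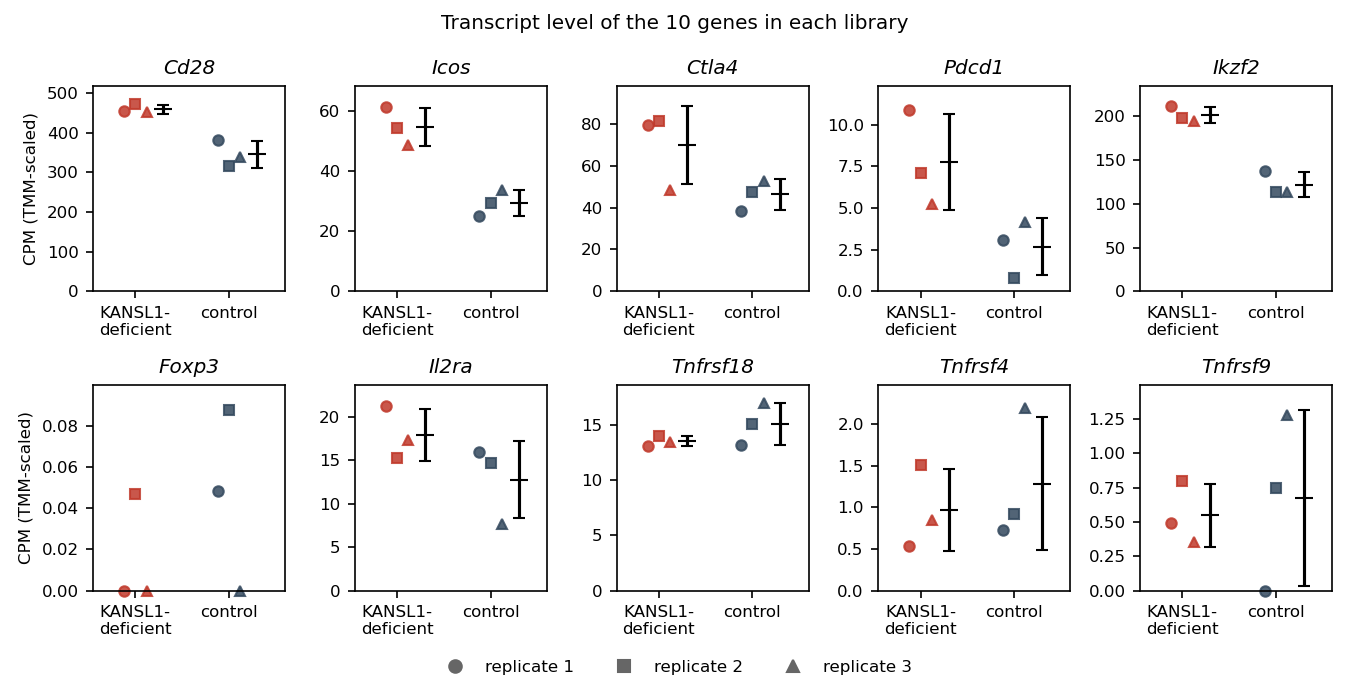
Level of each gene in every library (y axis: TMM-scaled CPM, linear from 0, a scale of its own for each gene), KANSL1-deficient libraries in red and control libraries in dark blue, with 1 symbol per replicate number; horizontal bars with whiskers give the mean and SD (n = 3), except for Foxp3, where only 4 counts were read in all. Cd28, Icos, Pdcd1 and Ikzf2 do not overlap between the groups, while the other 6 genes do.

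Cd28 (ENSMUSG00000026012, GRCm39 chromosome 1, 60755959 to 60812518) encodes the main costimulatory receptor of T cells. It was read at 454, 472 and 452 CPM in KANSL1-deficient replicates 1 to 3, against 382, 316 and 339 CPM in control replicates 1 to 3. Every KANSL1-deficient library was above every control library, with means of 459 ± 11.2 and 346 ± 33.7 CPM in the KANSL1-deficient and control cells (SD, n = 3 each). This was a 1.33-fold difference (log2 fold change 0.41 ± 0.12, SE) with an adjusted p of 0.0552 by edgeR, 0.0149 by DESeq2 and 0.0395 by limma-voom. With library totals in place of TMM scaling it was 0.26, and the adjusted p was 0.203.

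Icos (ENSMUSG00000026009, chromosome 1, 61017086 to 61039479) encodes the inducible costimulator. Its level was 61.3, 54.1 and 48.7 CPM in the KANSL1-deficient libraries, against 25, 29.4 and 33.6 CPM in the control libraries. The lowest KANSL1-deficient library was thus well above the highest control library, and the means were 54.7 ± 6.37 and 29.3 ± 4.34 CPM in KANSL1-deficient and control cells (SD, n = 3 each). Icos rose by 0.90 ± 0.18 on the log2 scale (SE; edgeR, adjusted p = 0.0137). The call was lost when KANSL1-deficient replicate 1 (adjusted p = 0.0729) or 2 (0.0596) or control replicate 2 (0.0605) was left out, while the log2 fold change stayed between 0.78 and 1.00 with any 1 library left out.

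Ctla4 (ENSMUSG00000026011, chromosome 1, 60926159 to 60954991) encodes the inhibitory receptor for the CD28 ligands. Its level was 79.6, 81.6 and 48.3 CPM in the KANSL1-deficient libraries, against 38.6, 47.4 and 53.0 CPM in the control libraries. KANSL1-deficient replicates 1 and 2 were above all controls, whereas replicate 3 lay below control replicate 3. The log2 fold change was 0.59 ± 0.21 (SE), with an adjusted p of 0.112 by edgeR, 0.0451 by DESeq2 and 0.120 by limma-voom. Without KANSL1-deficient replicate 3 it was 0.80 with an adjusted p of 0.0422 (edgeR).

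The balance of these receptors within a library does not depend on how libraries are scaled to each other. The ratio of Icos to Cd28 in FPKM was 0.241, 0.204 and 0.192 in KANSL1-deficient replicates 1 to 3, against 0.117, 0.166 and 0.177 in control replicates 1 to 3. All 3 KANSL1-deficient libraries were above the controls. The ratio of Ctla4 to Cd28 was 0.461, 0.454 and 0.281 in the KANSL1-deficient libraries, against 0.266, 0.395 and 0.412 in the control libraries, so the groups overlapped.

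Pdcd1 (ENSMUSG00000026285, chromosome 1, 93966027 to 93980278) encodes PD-1, an inhibitory receptor that early negatively selected thymocytes are known to induce. Its level was 10.9, 7.12 and 5.21 CPM (221, 151 and 104 counts) in the KANSL1-deficient libraries, against 3.05, 0.792 and 4.18 CPM (63, 18 and 95 counts) in the control libraries. The groups did not overlap, but both spread widely, with control replicate 2 far below the other controls. Its log2 fold change of 1.53 ± 0.52 (SE), a 2.89-fold difference, was the highest of the 9 tested genes, and its adjusted p was 0.0970 by edgeR, 0.0285 by DESeq2 and 0.0568 by limma-voom. The ratio of Pdcd1 to Cd28 in FPKM was 0.0758, 0.0477 and 0.0365 in the KANSL1-deficient libraries, against 0.0252, 0.00794 and 0.0391 in the control libraries, so the groups overlapped on this scale. The log2 fold change was 1.07 without control replicate 2 and 2.00 without control replicate 3, and passed with edgeR in neither case (adjusted p = 0.197 and 0.0797).

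Promoters were looked up in a RefSeq table on build GRCm38.p6, which held 7 of the 10 genes; Cd28, Icos and Ikzf2 were not matched. Those of Ctla4 and Pdcd1 are printed because they were the matched genes that passed with DESeq2, and that of Tnfrsf18 because it was the most abundant gene with a negative log2 fold change. The Il2ra promoter was matched too and held 1 of the motifs described next. Each runs from 250 bases before to 50 bases after the annotated start, on the strand of the gene, and capitals mark the NFAT core motif, GGAAA or its reverse complement TTTCC, bound by a family of factors activated by receptor signalling. The intervals are chr1:60908775-60909074 (plus strand) for Ctla4, chr1:94052504-94052803 (minus strand) for Pdcd1 and chr4:156026072-156026371 (plus strand) for Tnfrsf18.
Ctla4: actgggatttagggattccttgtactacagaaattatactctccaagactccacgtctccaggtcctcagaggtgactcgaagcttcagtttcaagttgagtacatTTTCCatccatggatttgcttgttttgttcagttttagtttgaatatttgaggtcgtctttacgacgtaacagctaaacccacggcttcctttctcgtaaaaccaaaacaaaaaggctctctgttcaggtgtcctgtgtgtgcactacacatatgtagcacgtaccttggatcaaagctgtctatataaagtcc
Pdcd1: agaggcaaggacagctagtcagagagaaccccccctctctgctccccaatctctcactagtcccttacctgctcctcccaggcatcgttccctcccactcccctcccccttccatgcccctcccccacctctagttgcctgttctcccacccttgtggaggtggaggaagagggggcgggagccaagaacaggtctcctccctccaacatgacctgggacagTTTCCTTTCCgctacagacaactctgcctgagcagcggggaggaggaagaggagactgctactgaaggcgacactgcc
Tnfrsf18: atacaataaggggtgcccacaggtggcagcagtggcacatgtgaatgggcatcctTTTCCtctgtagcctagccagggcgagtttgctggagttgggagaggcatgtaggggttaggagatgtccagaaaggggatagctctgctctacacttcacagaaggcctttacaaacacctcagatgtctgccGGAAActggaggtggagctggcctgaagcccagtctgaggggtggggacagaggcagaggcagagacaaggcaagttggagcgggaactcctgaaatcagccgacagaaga
The Ctla4 promoter held 1 match, and the Pdcd1 and Tnfrsf18 promoters held 2 each. In the Pdcd1 promoter the 2 matches stand side by side, shortly before the start. The motif occurs in 61.3% of the 32851 promoters of the table, so a match in these windows is common. The motifs of RUNX factors (TGTGGT, in 16.8% of promoters), AP-1 (TGANTCA, 7.81%) and NR4A receptors (AAAGGTCA, 1.51%), searched on both strands, had 0 matches in these 3 windows. Among the matched windows not printed, the second of 2 for Tnfrsf9 held 1 RUNX and 1 AP-1 match, and the others held none.

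Ikzf2 (ENSMUSG00000025997, chromosome 1, 69570373 to 69726404) encodes Helios, an Ikaros family transcription factor found in regulatory T cells and in thymocytes that met a strong self signal. Its level was 212, 198 and 195 CPM in the KANSL1-deficient libraries, against 138, 114 and 113 CPM in the control libraries. The libraries of each group lay close together and the groups were far apart, with means of 202 ± 8.79 and 121 ± 13.9 CPM in KANSL1-deficient and control cells (SD, n = 3 each). Ikzf2 rose by 0.73 ± 0.13 on the log2 scale (SE; edgeR, adjusted p = 0.00829) and had the smallest p of the 9 tested genes. The adjusted p stayed under the threshold with any 1 library left out, between 0.00802 and 0.0456, and was lost on log2 FPKM plus 0.1 (0.58, adjusted p = 0.0506 by limma). In the same libraries the ratio of Ikzf2 to Cd28 in FPKM was 0.246, 0.221 and 0.228, against 0.190, 0.190 and 0.176 in the control libraries, without overlap. The lncRNA genes Gm28112 and Gm29112 overlap Ikzf2 on the same strand and had 179 and 904 counts in the KANSL1-deficient libraries together, against 79 and 783 counts in the control libraries, far below the 12408 and 8001 counts of Ikzf2.

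Foxp3 (ENSMUSG00000039521, chromosome X, 7439883 to 7461484), the lineage factor of regulatory T cells, was read 0, 1 and 0 times in KANSL1-deficient replicates 1 to 3, against 1, 2 and 0 times in control replicates 1 to 3. The ratio of the summed counts, corrected for library totals, was 0.323 with a 95% interval of 0.00615 to 4.02 (exact binomial, counting error only), so no difference was detectable at this depth. The lncRNA Flicr, which overlaps Foxp3 on the same strand, had 11 counts in KANSL1-deficient and 52 in control libraries.

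Il2ra (ENSMUSG00000026770, chromosome 2, 11647618 to 11698004) encodes the IL-2 receptor alpha chain, which marks an earlier thymocyte stage as well as regulatory T cell precursors. Its level was 21.2, 15.3 and 17.3 CPM in the KANSL1-deficient libraries, against 15.9, 14.7 and 7.70 CPM in the control libraries. The groups overlapped, control replicate 3 was the lowest library, and the log2 fold change was 0.49 ± 0.29 (SE; edgeR, adjusted p = 0.351). Markers of double-negative thymocytes, a list that includes Il2ra, summed to 124 to 142 CPM in KANSL1-deficient and 83.5 to 107 CPM in control libraries. The 5 tested ones had a median log2 fold change of 0.45. Most of this sum came from Notch1 (65.4 and 46 CPM in KANSL1-deficient and control cells) and Cd44 (45.2 and 33.7). Kit had a log2 fold change of 0.45 ± 0.53 (SE), whereas Il7r, Nrarp and Hes1 went the other way. Il7r had 1 count in KANSL1-deficient and 27 in control libraries, and Nrarp had 9 and 22. Hes1 had a log2 fold change of -0.21 ± 0.37 (SE). The part of double-negative cells in the Il2ra level was not tested.

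The 3 TNF receptor superfamily genes lie on chromosome 4 and encode receptors that convey growth and survival signals to activated and regulatory T cells. Tnfrsf18 (GITR; ENSMUSG00000041954, 156110621 to 156113352) gave 13.1, 14.0 and 13.4 CPM in the KANSL1-deficient libraries, against 13.2, 15.1 and 17.0 CPM in the control libraries. The KANSL1-deficient libraries were all near the lowest control, and the log2 fold change was -0.16 ± 0.22 (SE; edgeR, adjusted p = 0.744). Tnfrsf4 (OX40; ENSMUSG00000029075, 156098300 to 156101069) had 11, 32 and 17 counts in the KANSL1-deficient libraries, against 15, 21 and 50 counts in the control libraries, and a log2 fold change of -0.41 ± 0.71. Tnfrsf9 (4-1BB; ENSMUSG00000028965, 150999019 to 151030559) had 10, 17 and 7 counts, against 0, 17 and 29 counts in the control libraries, and a log2 fold change of -0.30 ± 1.10. In CPM the groups overlapped for all 3 genes, whereas in FPKM, which carries no TMM factor, Tnfrsf18 was 8.02 to 8.68 in KANSL1-deficient and 9.25 to 11.7 in control libraries, without overlap. For Tnfrsf4 and Tnfrsf9 no difference was detectable at this depth. The sign of Tnfrsf4 turned without control replicate 3 (0.22), as did that of Tnfrsf9 (0.53). The opposite-strand gene Camta1 overlaps Tnfrsf9 and had 467 counts in KANSL1-deficient and 544 in control libraries, so without strand information the few Tnfrsf9 reads could be shared with it.

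**Figure D2:**
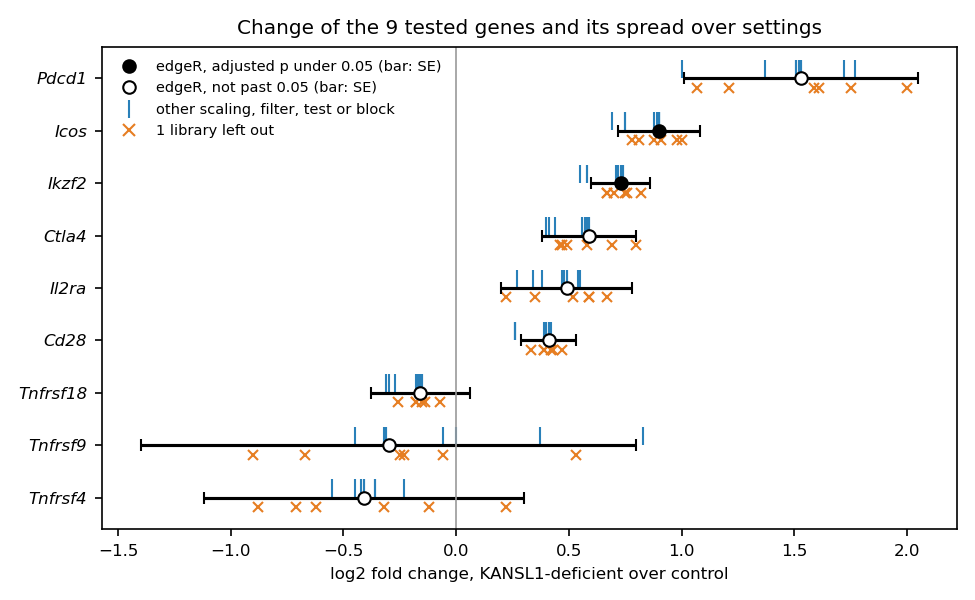
Log2 fold change (x axis, KANSL1-deficient over control) of the 9 tested genes, ordered by size; circles with bars are the edgeR value and its SE, filled where the adjusted p was under 0.05, blue ticks are other scalings, filters, tests and the replicate block, and orange crosses leave out 1 library. Ikzf2 and Icos are filled, and Pdcd1, Icos, Ikzf2, Ctla4, Il2ra and Cd28 stay above 0 in every setting shown, while Tnfrsf4 and Tnfrsf9 cross it.

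Calls of higher genes were more frequent among abundant genes, so each of the 10 was also set beside genes of like abundance. Split into 10 equal groups of rising mean CPM, the tested genes had Cd28 and Ikzf2 in the most abundant one, where 13.2% of genes were called higher and the median log2 fold change was 0.20. Icos and Ctla4 fell in group 8, where 4.23% were called higher and the median was -0.00. Pdcd1 fell in group 4, with 1.37% called higher, Il2ra and Tnfrsf18 in group 6, with 4.36%, and Tnfrsf4 and Tnfrsf9 in groups 2 and 1, with 0.391% and 0.651%.

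The genes whose centred log2 CPM over the 6 libraries ran closest to those of Ikzf2, Icos and Cd28 were found among 8812 protein-coding genes of at least 5 CPM. For Ikzf2 they were Anp32e, Lig4 and Nup62, at root-mean-square differences of 0.038, 0.048 and 0.051 on the log2 scale. For Icos they were Prep, Itm2a and Sh3gl1, at 0.059, 0.073 and 0.077. For Cd28 they were Syncrip, Git2 and Pik3r1, at 0.026, 0.032 and 0.035.

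Cd28, Ctla4 and Icos are neighbours on chromosome 1, in this order on the plus strand, with gaps of 114 kb between Cd28 and Ctla4 and 62.1 kb between Ctla4 and Icos. Their log2 fold changes of 0.41, 0.59 and 0.90 increased along this order, although their standard errors of 0.12, 0.21 and 0.18 make neighbouring values overlap and the trend was not tested. Of 14 other genes that start within 250 kb of this cluster, 7 were tested, of which 0 passed with edgeR or limma-voom, 1 passed with DESeq2 (7.56% of all genes were higher by it) and 2 had an unadjusted p under 0.05, as had 22.6% of all genes. The median log2 fold change of these 7 was 0.42, against -0.02 over all tested genes. The 2 were the lncRNA gene Gm11579 (1.28 ± 0.42, SE), between Cd28 and Ctla4, and the pseudogene Eif4a-ps4 (0.42 ± 0.13), before Cd28. In both the groups did not overlap, and Eif4a-ps4 was the one that passed with DESeq2 (adjusted p = 0.0201). On the other strand Gm11579 overlaps Gm37198 (0.22 ± 0.21, SE) and 2310016D23Rik (0.48 ± 0.71). Without strand information, reads could be shared between them. Whether reads of the pseudogene came from related gene copies elsewhere was not tested. Raph1, an actin regulator, had a log2 fold change of 0.37 ± 0.40 (SE).

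Tnfrsf4 and Tnfrsf18 are also neighbours, 9.55 kb apart on chromosome 4. Of 33 other genes within the same distance of them, 26 were tested, 1 was lower, near the 2.91% of all genes, and 0 were higher, with a median of -0.26. The lower one was Cptp, a ceramide-1-phosphate transfer protein, which fell by 1.25 on the log2 scale (SE 0.31; edgeR, adjusted p = 0.0343).

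**Figure D3:**
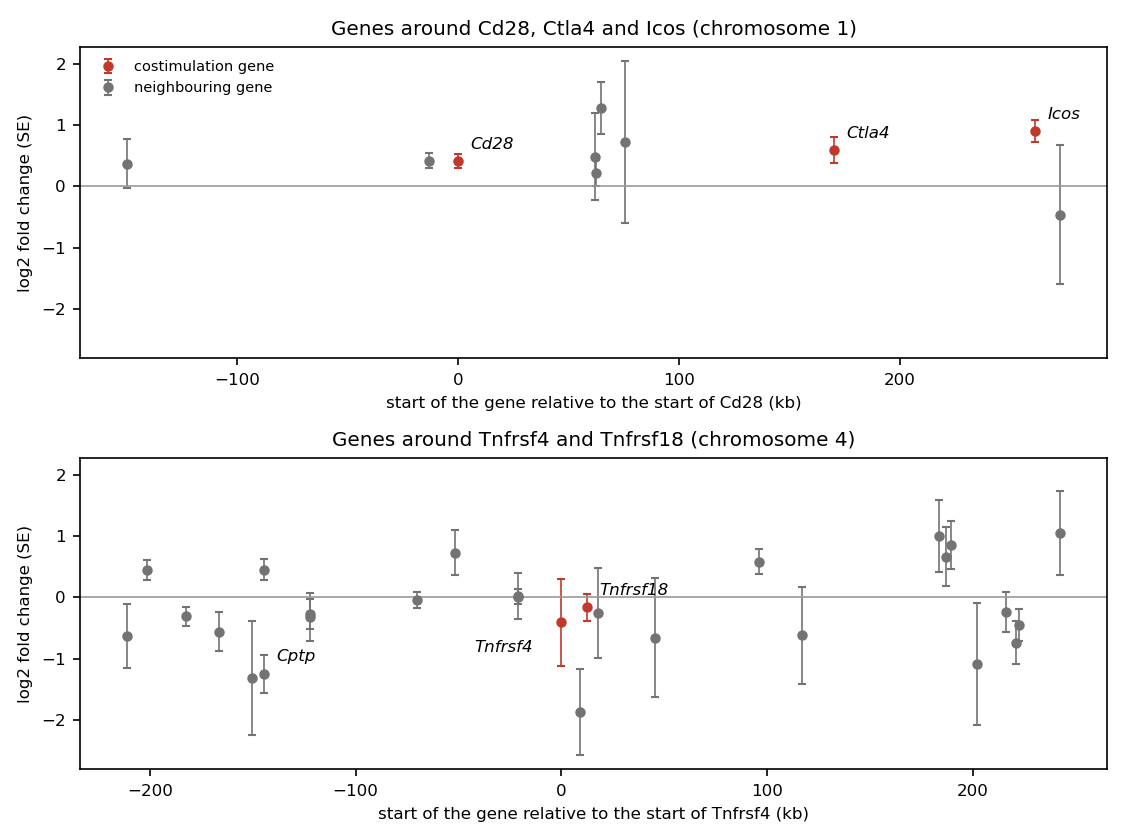
Log2 fold change (y axis, KANSL1-deficient over control; bars: SE) of each tested gene against the distance of its start from the start of Cd28 (upper panel) or Tnfrsf4 (lower panel) in kb, with the costimulation genes in red and their neighbours in grey. Cd28, Ctla4 and Icos lie at 0.41, 0.59 and 0.90, and Tnfrsf4 and Tnfrsf18 at -0.41 and -0.16; the only named neighbour, Cptp, passed the threshold.

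Several other receptors of the same kind also changed. Of 23 further costimulatory and coinhibitory receptors, 20 were tested, 6 were higher and 1 was lower, and the list's median log2 fold change was 0.47. Over all tested genes 3.85% were higher and 2.91% lower, but 5 of the 6 higher receptors lay in the abundance groups 9 and 10, where 6.12% and 13.2% of genes were higher. Cd226, which encodes the activating receptor DNAM-1, gave 8.41, 15.5 and 11.3 CPM in the KANSL1-deficient libraries, against 2.42, 3.65 and 2.68 CPM in the control libraries. It rose by 2.01 ± 0.34 on the log2 scale (SE; edgeR, adjusted p = 0.00698), above all controls in each library. In the SLAM family of self-binding receptors, Slamf1 (0.72 ± 0.14) and Cd84 (0.53 ± 0.12) rose. The related receptor gene Ly9 fell by 1.34 (SE 0.18; edgeR, adjusted p = 0.00388), with 50, 64.8 and 44.2 CPM in the KANSL1-deficient libraries, against 113, 127 and 164 CPM in the control libraries. The adhesion receptor gene Cd2 (0.59 ± 0.14) and the TNF receptor 2 gene Tnfrsf1b (0.55 ± 0.14) rose as well. The sixth was Cd5 (0.56 ± 0.15), a negative regulator of receptor signalling, named here to complete the count. Cd27, another TNF receptor family member and abundant in both groups, had a log2 fold change of 0.17 ± 0.11, and the coinhibitory genes Lag3 and Tigit had -0.03 ± 0.31 and 0.53 ± 0.23, none past the threshold. The number of higher receptors was 1 when KANSL1-deficient replicate 1 or 2 or control replicate 2 was left out, and 2 with library totals.

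Of 32 genes of signalling below these receptors, 31 were tested, 6 were higher and 0 were lower, with a median log2 fold change of 0.20. All 6 lay in abundance groups 9 and 10 (6.12% and 13.2% of genes higher, against 3.85% over all), and the median over all genes of group 10 was also 0.20. Among them were Prkcq (0.58 ± 0.12, SE), the kinase of the CD28 signalling complex, the exchange factor Vav1 (0.59 ± 0.13), the ubiquitin ligase Itch (0.61 ± 0.14), the TNF receptor adaptor Traf2 (0.55 ± 0.14) and the phosphatase Ptpn6 (0.59 ± 0.16). The IL-2 receptor chain Il2rg and the transcription factor Stat5b had log2 fold changes of -0.01 ± 0.12 and 0.19 ± 0.12, and Il2rb was read only 9 and 11 times in the KANSL1-deficient and control libraries. This count depended on single libraries and on scaling: it was 0 when either group's replicate 2 was left out, 1 when KANSL1-deficient replicate 1 was, 3 when KANSL1-deficient replicate 3 or control replicate 1 was, and 1 with library totals.

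Of 33 other genes of agonist selection and regulatory T cells, 31 were found and 26 tested. Gata3, a transcription factor of the CD4 lineage, was higher (0.87 ± 0.14, SE; edgeR, adjusted p = 0.00644), as was the Ikaros gene Ikzf1 (0.43 ± 0.11; 0.0343), and 0 were lower; the median was 0.16. Both lay in abundance group 10, where 13.2% of genes were higher, against 3.85% over all. Genes known to be induced early by receptor signalling did not pass the threshold with edgeR and did not move one way. Cd69 had 396, 278 and 245 CPM in the KANSL1-deficient libraries, against 205, 221 and 210 CPM in the control libraries, without overlap, and a log2 fold change of 0.53 ± 0.16 (SE) with an adjusted p of 0.0729 by edgeR and 0.0198 by DESeq2. Nab2, at 0.68 ± 0.26, did not overlap between the groups either. Nr4a1 was read at 469 ± 125 and 455 ± 119 CPM in KANSL1-deficient and control cells, and Egr1 at 229 ± 122 and 365 ± 18.9 CPM (SD, n = 3 each). Their log2 fold changes were 0.04 ± 0.21 and -0.67 ± 0.28, and those of Nr4a2, Nr4a3, Egr2 and Egr3 were 0.17 ± 0.24, -0.30 ± 0.17, -0.66 ± 0.43 and -0.79 ± 0.85. Bcl2l11, which encodes the death effector BIM, had 0.09 ± 0.13. Without KANSL1-deficient replicate 1, 2 or 3, or without control replicate 2 or 3, 1 gene of this list was higher.

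Ligands of the receptors were scarce. Of 10 listed, 9 were found and 3 tested, and 0 passed by edgeR, by DESeq2 or by limma-voom, nor did any have an unadjusted p under 0.05. Cd274, which encodes the PD-1 ligand PD-L1, was the most abundant, at 20.5 ± 6.05 CPM in KANSL1-deficient and 22.6 ± 3.78 CPM in control cells (SD, n = 3 each). Cd80, Cd86 and Icosl were read 20, 13 and 6 times in the KANSL1-deficient libraries, against 40, 23 and 7 times in the control libraries.

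**Figure D4:**
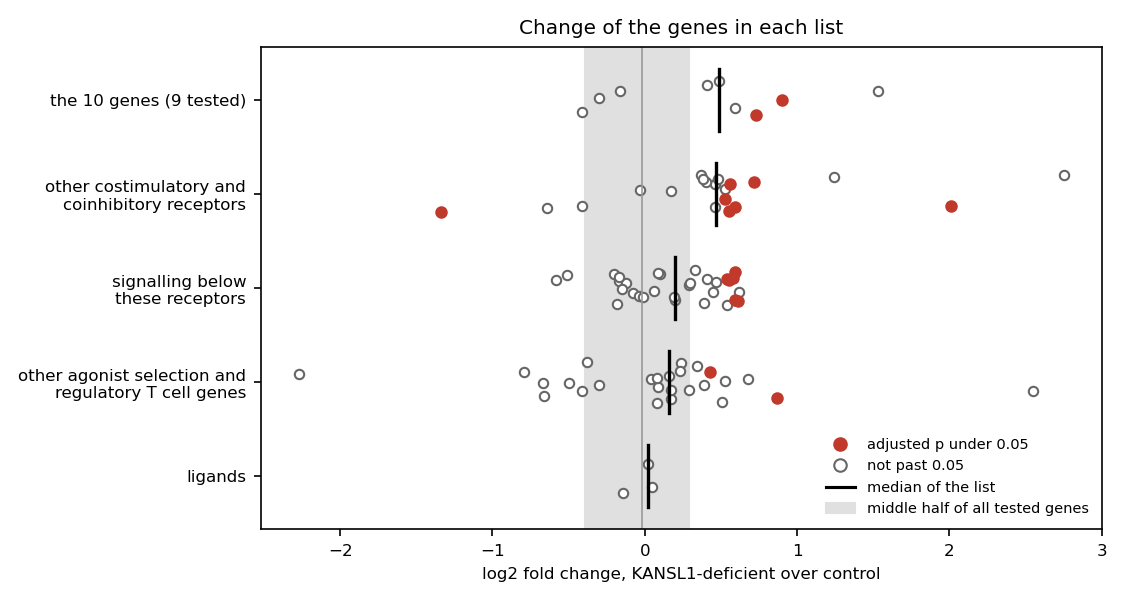
Log2 fold change (x axis, KANSL1-deficient over control) of every tested gene in 5 lists, 1 point per gene with random vertical offset, red where the adjusted p was under 0.05; black lines are list medians and the grey band runs from the lower to the upper quartile of all 15353 tested genes. The medians are 0.49 for the 9 tested genes studied here, 0.47 for other receptors, 0.20 for signalling, 0.16 for agonist selection genes and 0.02 for ligands.

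In the authors' deposited table the adjusted p was 9.95e-06 for Ikzf2, 8.2e-05 for Icos, 0.0144 for Cd28, 0.0275 for Pdcd1 and 0.0435 for Ctla4. Of these, the authors' deposited table marks Pdcd1 alone as significant, at a fold change of 2.88. Ikzf2, Icos, Cd28 and Ctla4 had fold changes of 1.66, 1.86, 1.33 and 1.51 there. The mark is thus not the adjusted p alone: 2018 genes had one under 0.05 and 640 were marked.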

How the data were processed

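RNA was sequenced from sorted double-positive thymocytes of 3 KANSL1-deficient and 3 control mice after poly(A) selection, per the labels' protocols. The build GRCm39 and the tools STAR, featureCounts and DESeq2 are named in the submitters' processing notes, without versions or a strand setting. The authors deposited whole-number read counts per gene and FPKM values for the same genes, whose implied gene lengths were the same in all 6 libraries. The authors' comparison gives, per the file headers, a mean normalized signal, a fold change as a ratio, its log2 value, a p-value and an adjusted one.

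The counts were tested in R 4.3.3 with edgeR 4.0.16 (quasi-likelihood, TMM scaling, filter by group with minimum count 10 and minimum total 15, robust dispersions, Benjamini-Hochberg adjustment over all 15353 tested genes, threshold 0.05). The SE is the log2 fold change divided by the square root of F. Log2 CPM used a prior count of 2. Alternatives were other scalings and filters, DESeq2 1.42.0, limma 3.58.1 (voom, and log2 FPKM plus 1 or 0.1), a replicate block and each library left out. No 2 libraries were alike within sampling noise. Equal replicate numbers did not mark paired mice in the labels.

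Members are named with all values. From each list, up to 6 genes past the threshold with the smallest p are named, and past-threshold neighbours within 250 kb. Some of these genes are not reported here. Examples that did not pass were picked afterwards. The members and lists were chosen with earlier results of these data known. Intervals cover counting error only.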

Additional observations from a re-analysis of the deposited data

How the results depend on the processing

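The count of all genes past the threshold, 1038 with edgeR, was 1729 with no filter on low counts, 2009 with DESeq2, and 283 to 811 with 1 library left out. Higher genes were 56.9% of calls with TMM scaling and 27.7% with library totals, under which the median of all genes shifted by -0.15 (log2) (31.5% with log2 FPKM). The number of the 10 genes that were higher, 2 with edgeR, was 4 with no filter (Ikzf2, Icos, Ctla4, Pdcd1), 4 with at least 5 CPM in 3 libraries (Ikzf2, Icos, Cd28, Pdcd1), 5 with DESeq2, 1 with log2 FPKM plus 0.1 (Icos), and 1 to 3 with 1 library left out. It was 1, Ikzf2, without KANSL1-deficient replicate 1 or 2 or control replicate 2. None of the settings run called any of the 10 lower. Other receptors that were higher numbered 2 with library totals, 1 with log2 FPKM plus 1 or plus 0.1, and 1 to 6 with 1 library left out. Signalling genes numbered 1 with library totals, 10 with the stricter filter, 11 with DESeq2, 10 with limma-voom, 0 with log2 FPKM plus 1 or plus 0.1, and 0 to 4 with 1 library left out. Higher agonist selection genes numbered 1 with library totals, 4 with no filter, 4 with DESeq2, 1 with log2 FPKM plus 1 or plus 0.1, and 1 to 2 with 1 library left out; lower ones numbered 1 with DESeq2 and 0 to 1 with 1 library left out. Causes were not tested. The sign of Tnfrsf4 turned without control replicate 3 (0.22; range with 1 library left out -0.88 to 0.22), and that of Tnfrsf9 with limma-voom (0.83), with the replicate block (0.37) and without control replicate 3 (0.53; range -0.90 to 0.53).

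Nothing in the labels ties mice of equal replicate number together, and the deviations of same-numbered libraries from their group means correlated at -0.0486, -0.0236 and -0.0955. With the replicate block, 406 of all genes passed, and 1 of the 10 genes (Ikzf2) was higher, since the adjusted p of Icos was 0.0506 with an unmoved log2 fold change of 0.90. With the block, 1 other receptor, 0 signalling genes and 1 agonist selection gene were higher. Low counts limit what can be said of Foxp3, Tnfrsf9 and Tnfrsf4.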
